A study of Mus musculus with 6 samples.

Results

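The genes described here are 10 genes of the mesenchymal transition, a list of names set with earlier results of these data known and with no measured value in its rule: the transcription factors Snai1, Snai2, Twist1, Twist2, Zeb1 and Zeb2, the effector genes Vim, Fn1 and S100a4, and the progenitor factor Sox2. They were matched to the deposited table by Ensembl identifier, and 9 of the 10 were among its 29616 genes. Sox2 had no row in the table and was not analysed here. The study compared cells from wild-type C57BL/6 mice that received the synthetic glucocorticoid dexamethasone (a daily 0.08 µg/g over 4 weeks, begun at 8 weeks of age) with cells from mice of the same strain labelled Control. Each group had 3 libraries, described by the submitters as biological replicates, and whether a library came from 1 mouse or from several is not given in the sources used here. The labels call the material bone cells, and the study's text describes cells from bones without marrow that were selected for Osteocalcin.

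SNAIL, TWIST and ZEB factors are transcriptional repressors or regulators that bind E-box sequences and are best known for switching off epithelial genes such as E-cadherin during the epithelial-mesenchymal transition. Osteoblasts are mesenchymal cells from the start, so these factors are part of their normal program, and Vim (vimentin, an intermediate filament protein) and Fn1 (fibronectin, a matrix glycoprotein) are abundant in them. S100a4, also called fibroblast-specific protein, is a small calcium-binding protein, and Sox2 is a pluripotency and neural progenitor factor.

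The promoters of 7 of the 10 genes were in the RefSeq table used here (build GRCm38.p6, whereas the submitters' processing notes name GRCm39), and those of Snai2, Zeb1 and Fn1 were not. The 250 bases before the start are shown for 4 genes. The first 3 are Snai1, which rose while its relative Snai2 fell, and Twist1 and Twist2, which differed most in level, and the last is S100a4, which had the largest fold change among the tested members. Capitals mark CACCTG, the E-box that SNAIL and ZEB factors bind, and TATAAA, the box that the general transcription machinery binds, each searched on both strands. Snai1 is at chr2:167537945-167538194, Twist1 at chr12:33957421-33957670, Twist2 at chr1:91801211-91801460 and S100a4 at chr3:90603520-90603769, all on the plus strand.
Snai1: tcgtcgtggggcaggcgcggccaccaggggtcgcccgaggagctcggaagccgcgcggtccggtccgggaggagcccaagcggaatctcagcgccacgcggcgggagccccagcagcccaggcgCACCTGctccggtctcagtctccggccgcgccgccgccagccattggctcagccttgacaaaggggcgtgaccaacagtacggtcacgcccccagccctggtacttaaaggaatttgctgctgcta
Twist1: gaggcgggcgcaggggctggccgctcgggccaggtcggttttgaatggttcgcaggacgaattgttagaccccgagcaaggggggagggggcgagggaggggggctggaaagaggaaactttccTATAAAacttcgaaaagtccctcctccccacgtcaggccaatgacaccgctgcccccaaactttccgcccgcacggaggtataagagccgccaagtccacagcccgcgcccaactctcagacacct
Twist2: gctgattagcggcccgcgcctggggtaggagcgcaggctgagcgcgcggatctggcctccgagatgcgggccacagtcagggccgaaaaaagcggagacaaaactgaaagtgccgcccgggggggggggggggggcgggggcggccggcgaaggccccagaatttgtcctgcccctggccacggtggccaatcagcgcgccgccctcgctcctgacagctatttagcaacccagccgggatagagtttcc
S100a4: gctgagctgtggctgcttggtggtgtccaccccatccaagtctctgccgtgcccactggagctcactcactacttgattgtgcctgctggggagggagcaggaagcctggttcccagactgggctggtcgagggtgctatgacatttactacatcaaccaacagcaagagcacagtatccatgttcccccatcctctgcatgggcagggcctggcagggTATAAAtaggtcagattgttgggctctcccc
The window of Snai1 held CACCTG at 126 to 121 bases before the start, and 17.2% of the 32851 windows in the table held this sequence. TATAAA lay 31 to 26 bases before the start of S100a4 and 126 to 121 bases before that of Twist1, and 12.4% of all windows held it. The window of Vim, not shown, held TATAAA 32 to 27 bases before the start. None of the 7 members' windows matched a palindromic glucocorticoid receptor element, which 0.387% of all windows held. A match describes the letters in a window and not a bound site.

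Values are normalized counts, which are reads per gene divided by a size factor for each library, and the libraries held 72596611 to 89910728 reads. A gene was tested where its normalized counts averaged 10 or more, and of the 17442 such genes 22.3% were differentially expressed, meaning a limma adjusted p-value under 0.05 together with an absolute log2 fold change of 1 or more. An adjusted p-value under 0.05 alone was reached by 72.5% of the tested genes, and the values of the groups did not overlap for 74.7%, so that a small difference with a low p-value was common in this comparison. Of the 9 members in the table, 8 were tested and Twist2 was below the minimum. Differential expression was found for 2 of the 8 (25%), of which S100a4 was higher and Snai2 lower with dexamethasone, directions that held 11.7% and 10.6% of all tested genes. An adjusted p-value under 0.05 alone was found for 7 of the 8 (87.5%), with 4 higher and 3 lower, where 37.2% and 35.2% of all tested genes lay, and the groups did not overlap for 6 of the 8 (75%). The shares of 25% and 75% were close to those of all tested genes, 87.5% was 7 genes of 8, and nothing particular to these genes is read from them. The median log2 fold change was 0.02 for the tested members and 0.00 (0.00071) for all tested genes. A lower value in a bulk library can come from fewer cells of a type or from less RNA per cell, and these cannot be told apart here.

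**Figure D1:**
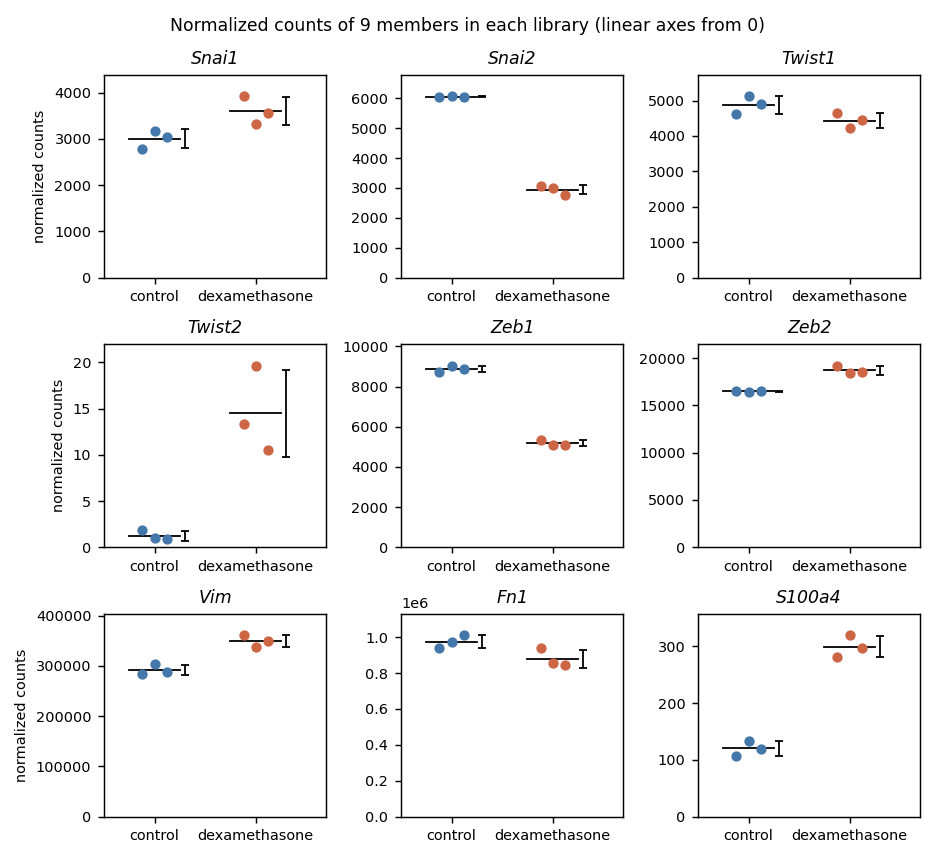
Normalized counts of the 9 members in each of the 6 libraries, with linear axes that start at 0. Points are libraries, the horizontal line is the mean and the bar the SD (n = 3 per group). The groups of Twist1 and Fn1 overlap, and those of the other members do not.

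Levels can be compared between genes only per length, and normalized counts per kilobase of annotated exon were used for this. The length was that of all annotated exons of a gene merged, 11685 bases for Fn1 and 4743 for Vim. The transcripts present may be shorter, so every order, rank and tie between genes below rests on these lengths. In control cells Fn1 was highest at 83295 ± 3084 (SD, n = 3) and Vim next at 61544 ± 2083, ranking 16 and 29 of the 28087 genes with a length. Twist1 (2999 ± 153) and Snai2 (2996 ± 4.21) followed at levels that did not differ beyond their spread, ahead of Snai1 (1849 ± 127). Zeb1 (865 ± 15.96), Zeb2 (826 ± 4.62), S100a4 (206 ± 22.8) and Twist2 (0.388 ± 0.166) were lower. The gap between Zeb1 and Zeb2 was larger than their spread but, like the other orders, rests on the annotated exon lengths. With dexamethasone the levels of Fn1 (75266 ± 4392) and Vim (73604 ± 2490) came within their spread of each other, at ranks 18 and 20. Twist1 (2725 ± 133) was then followed by Snai1 (2222 ± 185) and Snai2 (1454 ± 77.0), so that the SNAIL pair had changed places. Below them came Zeb2 (937 ± 21.6), and then S100a4 (513 ± 32.6) and Zeb1 (506 ± 14.8), which did not differ beyond their spread. The level of S100a4 is uncertain in both groups, because 51.7% of its exon bases overlap the gene Gm42674 on the same strand. Its place beside Zeb1 is therefore not read as an equal level. Twist2 was lowest in both groups (4.56 ± 1.47 with dexamethasone). Per length, Twist1 made up 99.99% of the TWIST pair in controls and 99.8% with dexamethasone.

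**Figure D2:**
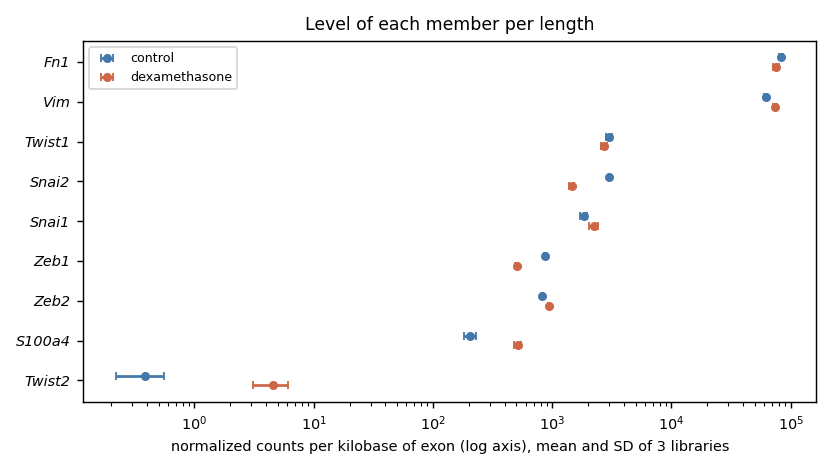
Mean normalized counts per kilobase of exon of each member in control and dexamethasone libraries on a log axis, with bars for the SD (n = 3 per group). Fn1 and Vim lie above all other members, Twist2 lies lowest in both groups, and Snai1 and Snai2 exchange order between the groups.

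Snai1 and Snai2 encode the zinc-finger repressors Snail and Slug. Snai2 had 6047, 6064 and 6052 normalized counts in control replicates 1 to 3 and 3064, 2986 and 2764 in dexamethasone replicates 1 to 3. All 3 dexamethasone libraries lay at about the same level, well below the controls, and the control libraries were nearly equal. At 6197 to 6887 reads per control library, this agreement was closer than counting error gives, so the control SD understates the spread. Snai2 fell from 6054 ± 8.50 to 2938 ± 156 (SD, n = 3), and its log2 fold change was -1.04 with a standard error of 0.0405 (limma adjusted p = 1.77e-17). This was close to the fold-change requirement, and the log2 fold change was -1.001 without dexamethasone replicate 3 and between -1.23 and -1.001 over the 17 alternative settings. Snai1 had 2774, 3179 and 3037 normalized counts in the control libraries against 3919, 3323 and 3562 with dexamethasone. The lowest dexamethasone library lay above the highest control library by less than the range within either group. Snai1 rose from 2997 ± 205 to 3601 ± 299.5 (SD, n = 3), 1.20-fold, and its log2 fold change was 0.26 with a standard error of 0.053 (limma adjusted p = 9.53e-05). It was not differentially expressed by the fold-change requirement, and its log2 fold change was 0.15 with all libraries rescaled to the same total and 0.11 after quantile normalization.

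Twist1 and Twist2 encode basic helix-loop-helix factors that act in mesoderm and skeletal development, where they restrain osteoblast maturation. Twist1 had 4624, 5121 and 4901 normalized counts in the controls and 4645, 4213 and 4451 with dexamethasone. The lowest control library lay within the dexamethasone values, so the groups overlapped. Twist1 fell from 4882 ± 249 to 4437 ± 217 (SD, n = 3), and its log2 fold change was -0.14 with a standard error of 0.0431 (limma adjusted p = 0.00628). The call at an adjusted p under 0.05 did not hold without control replicate 2 (-0.10, limma adjusted p = 0.0569) or without the mean-variance trend (limma adjusted p = 0.0845), and the log2 fold change was -0.25 at the same total and -0.31 after quantile normalization. Twist2 had 2, 1 and 1 reads in the controls and 14, 18 and 9 with dexamethasone. Every control library was at or under the 3 reads that a count of 0 allows, and every dexamethasone library was above it. Set against 3 reads for each control library, Twist2 was 5.22-fold higher with dexamethasone, and between 4.29-fold and 5.94-fold on leaving out any 1 library. This is not a strict lower bound, because counts of 1 or 2 reads allow more than a count of 0 does. When all 29616 genes were tested without a minimum, Twist2 passed at a limma adjusted p of 7.44e-05, in a test that did not apply the minimum used for all other members. The antisense gene Gm29100 overlaps 46.5% of the exon bases of Twist2 and had 0 normalized counts in all controls and 0.954, 2.18 and 1.16 with dexamethasone. With a stranded kit but no stated strand setting, reads of Gm29100 may or may not be separate from those of Twist2.

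Zeb1 and Zeb2 encode zinc-finger homeobox repressors that act on E-cadherin and on many other genes. Zeb1 had 8710, 9036 and 8894 normalized counts in the controls and 5366, 5102 and 5101 with dexamethasone. The highest dexamethasone library lay far below the lowest control. Zeb1 fell from 8880 ± 164 to 5190 ± 152 (SD, n = 3), 1.71-fold, and its log2 fold change was -0.78 with a standard error of 0.036 (limma adjusted p = 7.62e-16). Its log2 fold change stayed between -0.96 and -0.76 over the 17 alternative settings, short of the fold-change requirement in each. Gm10125, on the opposite strand over 1.93% of the exon bases of Zeb1, fell from 265 ± 17.7 to 76.6 ± 8.31 (SD, n = 3) normalized counts, and with a stranded kit but no stated strand setting its reads may or may not be separate from those of Zeb1. Zeb2 had 16531, 16368 and 16525 normalized counts in the controls and 19179, 18374 and 18514 with dexamethasone. All dexamethasone libraries lay above all controls. Zeb2 rose from 16475 ± 92.1 to 18689 ± 430 (SD, n = 3), and its log2 fold change was 0.18 with a standard error of 0.0342 (limma adjusted p = 4.36e-05), and this direction depended on the scaling, at 0.07 with the same total and -0.029 (limma adjusted p = 0.328) after quantile normalization.

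Of the effector genes, S100a4 and, under the deposited scaling but not after quantile normalization, Vim were higher with dexamethasone, and Fn1 did not pass the test. Vim had 284008, 302982 and 288723 normalized counts in the controls and 360880, 337257 and 349174 with dexamethasone, about 0.375% and 0.415% of all normalized counts. All dexamethasone libraries lay above all controls. Vim rose from 291905 ± 9879 to 349104 ± 11812 (SD, n = 3), and its log2 fold change was 0.26 with a standard error of 0.0549 (limma adjusted p = 0.000183), which was 0.14 with the same total (limma adjusted p = 0.000556) and -0.050 (limma adjusted p = 0.198) after quantile normalization. Quantile normalization sets values by rank, so among the highest genes, where Vim lies, its result rests on few genes and decides little about Vim. Fn1 had 937876, 972117 and 1009930 normalized counts in the controls and 938391, 855576 and 844472 with dexamethasone. Dexamethasone replicate 1 lay among the controls and the other dexamethasone libraries below them. Its log2 fold change was -0.15 (standard error 0.073, limma adjusted p = 0.0744), and an adjusted p under 0.05 was reached in 5 of the 17 alternative settings, at a log2 fold change of -0.26 with the same total (limma adjusted p = 3.52e-05) and -0.19 without dexamethasone replicate 1 (limma adjusted p = 0.00268). Fn1 made up 1.25% of all normalized counts in controls and 1.04% with dexamethasone.

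S100a4 had 107, 134 and 120 normalized counts in the controls and 281, 319 and 298 with dexamethasone, and the groups did not overlap. It rose from 120 ± 13.3 to 299 ± 19.1 (SD, n = 3), 2.49-fold, and its log2 fold change was 1.31 with a standard error of 0.114 (limma adjusted p = 1.92e-10), between 1.20 and 1.40 over the alternative settings. The count of S100a4 is uncertain because the gene Gm42674, on the same strand, overlaps 51.7% of its exon bases, and how shared reads were counted is not given. Its neighbour in the family, S100a6, rose from 34036 to 85165 normalized counts, or 1.32 on the log2 scale (limma adjusted p = 3.44e-19).

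**Figure D3:**
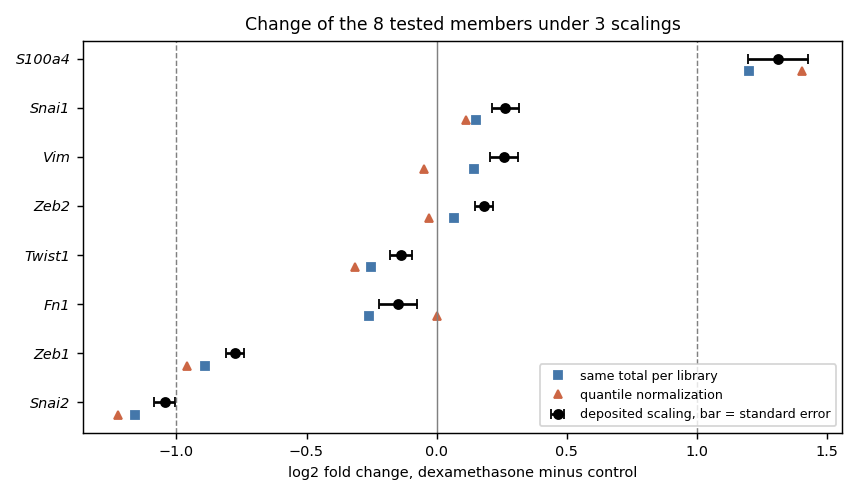
Log2 fold change of the 8 tested members, dexamethasone minus control, under the deposited scaling (black, bar = standard error), the same total per library (blue) and quantile normalization (orange). S100a4 lies beyond 1, Snai2 at -1.04 lies just beyond -1 and Zeb1 short of it, and Vim and Zeb2 lie above 0 under the deposited scaling and at the same total but below 0 after quantile normalization.

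Related factors were compared within each library, as the log2 ratio of the pair's normalized counts after adding 1 to each. The Snai1 to Snai2 ratio was -1.12, -0.93 and -0.99 in the controls and 0.35, 0.15 and 0.37 with dexamethasone, so every control library had more Snai2 and every dexamethasone library more Snai1. The difference in the mean was 1.31 (standard error 0.089). Per length, Snai1 made up 38.1% ± 1.600 (SD, n = 3) of the pair in controls and 60.4% ± 1.98 with dexamethasone. The Zeb1 to Zeb2 ratio was -0.92, -0.86 and -0.89 in controls and -1.84, -1.85 and -1.86 with dexamethasone, a difference of -0.96 (standard error 0.0205), and the Zeb1 share per length was 51.1% ± 0.584 (SD, n = 3) in controls and 35.04% ± 0.174 with dexamethasone. The Twist1 to Twist2 ratio differed by -2.91 (standard error 0.355), a value that rests on the few reads of Twist2. For all 3 pairs the groups did not overlap, and the exact two-sided permutation test gave p = 0.1, the smallest p that 3 against 3 libraries allow, and 0.1 after Benjamini-Hochberg adjustment over the 3 pairs. Apart from the added 1, a scaling factor applied to a whole library cancels in these ratios.

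**Figure D4:**
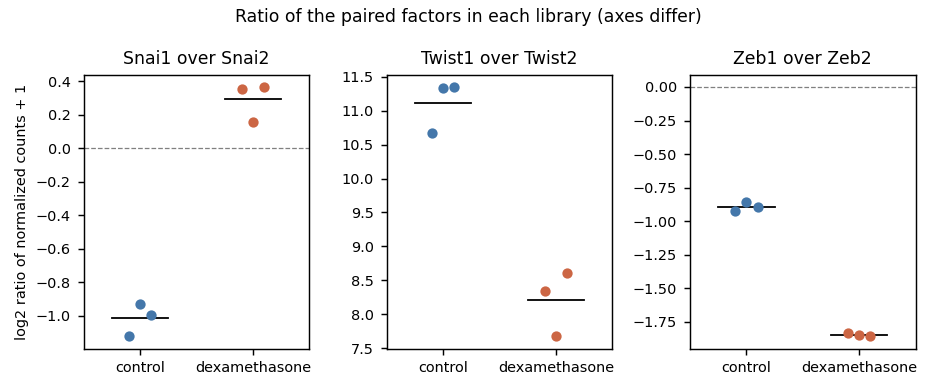
Log2 ratio of normalized counts of each related pair in every library, with the group mean as a line and axes that differ between panels. The Snai1 to Snai2 ratio changes sign between groups, and the Zeb1 to Zeb2 ratio is lower in every dexamethasone library.

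Genes connected to these factors were counted in lists, and no list was tested as a set. Of all tested genes, 72.5% had an adjusted p under 0.05 (37.2% higher, 35.2% lower) and 22.3% were differentially expressed. The counts below stand beside these shares. Of 18 other transcription factors linked to the transition, 16 were tested, and 7 passed the test at an adjusted p under 0.05 in the higher and 9 in the lower direction, with differential expression in 4 and 2. Hmga2, a chromatin factor of embryonic and stem cells, rose from 4083 ± 51.6 to 115187 ± 3427 (SD, n = 3) normalized counts, or 4.82 on the log2 scale (limma adjusted p = 1.35e-31), and Foxc2, a forkhead factor, had a log2 fold change of 3.33. Prrx1, a homeobox factor of mesenchyme, had -0.86 and Tcf4, a basic helix-loop-helix factor, -0.61. Among factors that oppose the transition, 7 of the 13 in the table were tested, all passing the test, with 3 higher and 4 lower. Id1, an inhibitor of basic helix-loop-helix factors, rose from 632 ± 6.65 to 4631 ± 148 (SD, n = 3) normalized counts, or 2.87 on the log2 scale (limma adjusted p = 2.08e-25), whereas Id3 and Klf4 had -0.41 and -0.44.

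The epithelial genes that SNAIL and ZEB factors repress were at low levels. Of the 19, 15 were in the table, and all 15 stayed under 100 normalized counts in every library, the highest value being 83.5 for Muc1. E-cadherin (Cdh1) had 16.5, 12.7 and 21.1 normalized counts in the controls and 16.2, 14.2 and 6.98 with dexamethasone, overlapping, and differed by -0.45 on the log2 scale (limma adjusted p = 0.295). Only 4 were tested, and of these Muc1 (-1.004) and Cldn1 (-1.11) were differentially expressed lower, a count of 2 that became 1 after quantile normalization, without control replicate 3 or without dexamethasone replicate 2, and 3 without dexamethasone replicate 3. Neither gene met the requirement with a pseudocount of 5. The median log2 fold change was -0.996 over the 4 tested genes and -0.14 over all 15 when no minimum was applied, where 1 gene was differentially expressed higher and 3 lower. Ocln (occludin, a tight junction protein), which was below the minimum, had 0, 1 and 0 reads in the controls and 4, 10 and 5 with dexamethasone.

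Of 24 other mesenchymal effector genes, 22 were tested, and 9 passed in the higher and 6 in the lower direction, which became 6 and 10 at the same total per library. Their median log2 fold change was 0.05, and -0.06 at the same total, where the median of all genes was -0.11. Acta2, a smooth muscle actin, fell from 144918 ± 3876 to 12449 ± 493 (SD, n = 3) normalized counts, or -3.54 on the log2 scale (limma adjusted p = 3.80e-28). Tnc, a matrix glycoprotein, had -1.91, while Itgb1, an integrin subunit, had 0.11. Among 8 tested S100 genes 5 were higher and 2 lower at an adjusted p under 0.05 (4 higher after quantile normalization), and S100a10 had 0.75 while S100b had -2.004. Of the other SOX factors 3 were tested, of which Sox5 had 1.33, Sox6 -2.37 and Sox11 -0.24. Among 17 tested corepressors and enzymes of the SNAIL and ZEB factors, 13 were higher and 2 lower at an adjusted p under 0.05, 10 and 4 at the same total and 10 and 6 after quantile normalization. The differentially expressed ones were Ezh2 (2.16), Pak1 (1.357), Suz12 (1.02) and Fbxl14 (1.00), and Suz12 and Fbxl14 were below the fold-change requirement at the same total. The count of 4 was 23.5% of the 17, near the 22.3% of all tested genes. It became 2 at the same total, after quantile normalization, by edgeR and without dexamethasone replicate 1. Fbxl14 is a subunit of a ubiquitin ligase that targets Snail for degradation. Ctbp1, a corepressor of ZEB factors, had 0.66, Gsk3b, a kinase that marks Snail for degradation, -0.18 and Csnk1a1 -0.05 (limma adjusted p = 0.172). Csnk1a1 depended on the scaling, at -0.17 with the same total (limma adjusted p = 8.13e-06) and -0.16 after quantile normalization (limma adjusted p = 1.19e-05).

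**Figure D5:**
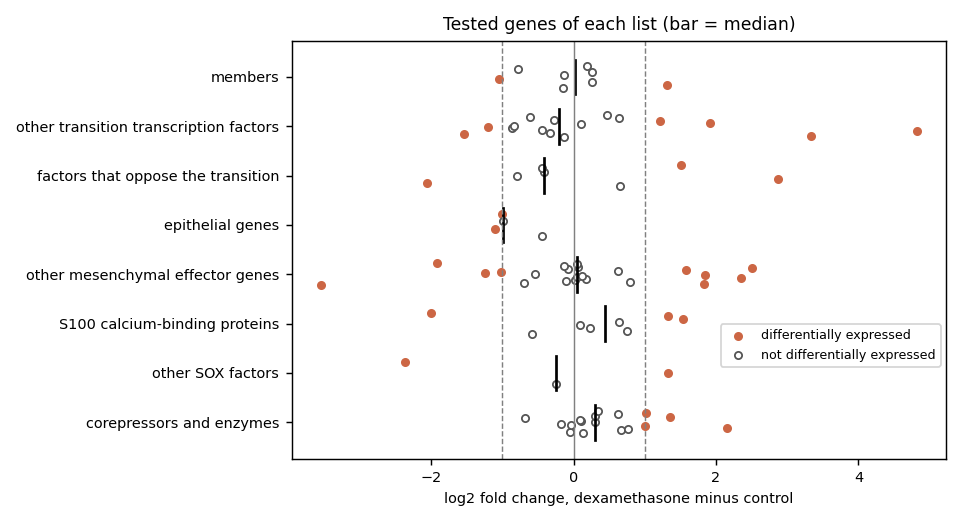
Log2 fold change of every tested gene of each list, dexamethasone minus control, with a bar at the list median and dashed lines at a log2 fold change of 1 in either direction. Hmga2 lies farthest to the right and Acta2 farthest to the left, and the 4 tested epithelial genes lie at or left of -0.45.

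The values of markers of other cells that moved beside these genes are given here, and their part in the changes was not tested. Of the 8 osteoblast markers, 7 were differentially expressed lower and Spp1 higher. RNA of the Osteocalcin gene Bglap was at 107 normalized counts in controls and 12.2 with dexamethasone, although the cells were described as selected for the protein. The related gene Bglap2 is also in this list, among the 7 lower. How reads shared by related genes were counted is not given, so the Bglap value is not the whole of Osteocalcin RNA. The summed pan-hematopoietic markers were 123 to 152 in controls and 804 to 859 with dexamethasone, mainly Cd53 (mean 15.7 in controls, 283 with dexamethasone) and Itgb2 (54.6 and 503), and 4 of its 5 tested genes were differentially expressed, 2 in each direction, whereas Ptprc, the defining leukocyte marker, had 2 to 3 reads in controls and 3 to 5 with dexamethasone. The macrophage sum was 1239 to 1280 in controls and 939 to 1088 with dexamethasone, 2 of the 5 tested genes were differentially expressed higher and 1 lower, and Adgre1 had no row. Endothelial markers summed to 387 to 425 and 486 to 518, with 1 of 5 tested genes (Esam) differentially expressed, Cdh5 at 0 to 2 reads and Pecam1 at 11 to 31 reads in any library. Smooth muscle and pericyte markers summed to 148709 to 156540 and 22532 to 24038, mainly Acta2 in controls and Acta2 and Cspg4 with dexamethasone, and Acta2 was the 1 gene of the 6 tested that was differentially expressed. The neutrophil sums were 983 to 1029 and 1095 to 1269, with 1 of 6 tested genes at a limma adjusted p under 0.05, and those of Schwann cells 5072 to 5566 and 4347 to 4616, with 4 of 4 at that level, 2 in each direction, and Sox10 at 0 to 4 reads. Adipocyte markers summed to 31.2 to 38.7 and 1452 to 1563, mainly Fabp4, the differentially expressed gene of the 2 tested. Chondrocyte markers summed to 6414 to 6841 and 22292 to 25136, mainly Sox9 and Col2a1, and 4 of 5 tested genes were differentially expressed, 2 in each direction.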

How the data were processed

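Poly(A) RNA libraries from a stranded kit were sequenced by the authors, who aligned and counted the reads per gene with STAR 2.7.10a (the submitters' processing notes name the build GRCm39), and the deposited values are normalized counts (a signal with no length correction), divided by a DESeq2 1.36.0 size factor per library. Whole reads were recovered for 100% of the values (tolerance 0.01). Rows were named by identifier from GENCODE M21, which also gave lengths and overlaps. Genes with a mean of at least 10 were tested with limma 3.58.1 with a mean-variance trend on log2(normalized count + 1) in R 4.3.3, the p-values being adjusted by Benjamini-Hochberg across the 17442 genes. Fold changes are on this scale and understate those of genes with few reads. On simulated data with 200 changed genes among 17204, limma recovered 200 with 2 false calls. At an adjusted p-value under 0.05 alone, 8 genes passed falsely. Recovery of genes close to the fold-change requirement, such as Snai2, is not read from these counts. Recovery with as many changed genes as in these data, where 72.5% had an adjusted p-value under 0.05 by limma, was not tested. The limit of 3 reads for Twist2 is that for a count of 0, and error in the dexamethasone libraries is not covered. The SDs and the standard errors of the pair ratios come from the spread between libraries. The limma standard errors and p-values also draw on the variance trend over all tested genes. Without that trend the limma adjusted p was 0.0344 for Snai1, 2.17e-05 for Snai2, 0.0845 for Twist1 and 2.65e-05 for Zeb1. It was 0.0045 for Zeb2, 0.00375 for Vim, 0.0653 for Fn1 and 0.000125 for S100a4. The members and lists were chosen with earlier results of these data known. All members were named, with the 3 highest-level tested genes and up to 2 largest changes of each list, and Suz12, Fbxl14 and Ocln were added once their values were known. A gene that this rule names is not reported here. Pairs were compared by exact permutation. Alternatives were other pseudocounts, filters, scalings and count models (edgeR 4.0.16 and DESeq2 1.42.0), no trend, a replicate block and leaving out each library.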

Additional observations from a re-analysis of the deposited data

How the results depend on the processing

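The number of differentially expressed genes was 3894, with 2170 (1350 up, 820 down) where the mean was 100 or more, 12645 (6497 higher, 6148 lower) by adjusted p alone, and 3888 to 3922 when each library was left out. The members called were 2 in all settings except 3 without a filter, where Twist2 was included, and 7 by adjusted p alone. Of the 8 tested members, Zeb2 and Vim reversed after quantile normalization (-0.029 and -0.050), Twist1 lost its call without the trend (-0.14) and ranged from -0.18 to -0.10 when each library was left out, and Fn1 passed the test without a filter (-0.15), at the same total (-0.26), by edgeR (-0.17) and by DESeq2 (-0.16) and ranged from -0.19 to -0.12 when each library was left out, with a difference of 0 after quantile normalization. Quantile normalization gives each rank the same value in every library. The difference of 0 for Fn1 therefore says nothing about a change that left its rank in place. For Vim, also among the highest genes, the result rests on few genes of similar rank. At the same total the median of all genes was -0.11, against 0.00071 with the deposited scaling. The causes were not tested. The replicate numbers did not pair the libraries (correlations of same-numbered deviations -0.0999, -0.105 and -0.0199), and the replicate block gave 3897 genes and 2 members. The difference in the Twist1 to Twist2 ratio was -3.25 with a pseudocount of 0.5 and -1.76 with one of 5. Genes of few reads, such as Twist2, are limited by depth. For the 7 gene lists, 41 counts moved by over 1.5 times or medians by more than the spread between libraries. The mesenchymal effector median changed sign at the same total (-0.06), and that of the factors opposing the transition did so among genes with at least 10 in every library (0.12).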
